A study of Mus musculus with 65 samples.

Results

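Old neural stem cells were compared with and without doxycycline after 18 h in differentiation medium, using 8 of the 65 libraries in the series. The 8 libraries came from 4 old mice aged 25 months, 2 female and 2 male, and each mouse gave 1 doxycycline library and 1 untreated library. The members of the comparison were taken from the sample titles: 4 libraries of the group with doxycycline and 4 of the untreated group at the same time, age and medium, paired by the animal number. All mice carry the genotype iOSKM, whose doxycycline-inducible cassette encodes Oct4, Sox2, Klf4 and Myc, so the untreated controls carry it too. The cells were primary neural stem cells of the adult subventricular zone, plated with EGF and bFGF and moved 18 h later to medium without these growth factors. Doxycycline was used at 2 µg per ml. When it was added relative to the change of medium is not given in the sources used here, and neither is which cells express the cassette. The same 4 animals also gave pairs at 6 and 48 h of differentiation and at 18 h in stem cell medium. A set of 5 young mice aged 3 to 4 months gave untreated libraries at 18 h of differentiation and both treatments at 18 h in stem cell medium.

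Neural stem cells of the subventricular zone are astrocyte-like cells that can leave quiescence, divide and give rise to neuroblasts, astrocytes and oligodendrocyte precursors. Withdrawal of EGF and bFGF lets them leave the cycle and start these programmes, and oligodendrocyte precursors pass through a committed state marked by Gpr17, Bcas1 and Enpp6 before they make myelin. Short expression of the 4 reprogramming factors, called partial reprogramming, is used to ask whether old cells regain features of young ones without losing their identity.

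Markers of the labelled cell type were present in the RNA. All 10 neural stem cell markers were tested, with summed levels of 7091 to 7560.0 CPM in the doxycycline libraries and 7552 to 8031 CPM in the untreated ones (CPM, counts scaled to library size by TMM, per 1e6). Their median log2 difference was -0.08, and 8 of the 10 were lower in all 4 animals. edgeR called none, while DESeq2 called 2 lower and limma on the variance-stabilised values called 1 lower. Of 10 microglial markers 4 were tested, and C1qa, C1qb and Tyrobp had no count in any of the 8 libraries. The 10 summed to 55.6 to 67.8 CPM with doxycycline and 60.8 to 64.3 CPM without it, and the highest value of a member was 61.3 CPM. Of 10 endothelial markers 7 stayed under 1 CPM in every library, and the only endothelial marker called was Kdr, a receptor for VEGF, at 7.43 ± 0.379 CPM with and 9.32 ± 0.799 CPM without doxycycline (mean ± SD, n = 4 and 4). Among 11 mural and fibroblast markers 3 were tested and none was called, and neither was any of the 6 ependymal or 7 neuronal markers tested. The highest value of a member was 187.7 CPM in the mural and fibroblast list, 42.6 CPM in the ependymal and 51.5 CPM in the neuronal list. Markers of other cell types were thus not all near 0. A list of 32 oligodendrocyte precursor genes summed to 15795 to 16978 CPM with doxycycline and 15461 to 16161 CPM without it. For 30 genes of astrocytes and quiescent stem cells the sums were 18797 to 21110 CPM and 20309 to 22737.5 CPM. The presence of stem cell markers therefore does not give the share of cells still in that state.

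None of the 4 factor genes was called in these libraries. Pou5f1, the gene for Oct4, was at 0.169, 0.199, 0.37 and 0.348 CPM with doxycycline in animals 1 to 4 and at 0.162, 0.122, 0.0708 and 0.15 CPM without it. Each animal had more with doxycycline, and the lowest treated value lay above the highest untreated one (2.15 times in the mean, exact two-sided permutation p = 0.0286, the smallest that 4 against 4 libraries can give, 0.133 after adjustment over 7 measures). That test does not use the pairing, and a sign-flip test within the 4 animals, added after seeing the data, gave p = 0.125, the smallest that 4 pairs allow by this exact test. In the edgeR fit across all genes it was not called (adjusted p = 0.27). Sox2 was at 313, 304.5, 313 and 329 CPM with and 319.9, 344, 333 and 342 CPM without doxycycline, lower in all 4 animals (exact permutation p = 0.0571, adjusted p = 0.133). Klf4 was at 2.62 ± 0.398 against 3.17 ± 0.232 CPM, and Myc at 50.0 ± 3.8 against 47.3 ± 5.1 CPM. These 4 features do not separate cassette from endogenous messages, and of the cassette's own linker features P2A and T2A had no count in the 8 libraries while E2A had 2 counts in 1 doxycycline library.

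Totals ran from 56.5 to 106.7 M counts per library (M, counts in units of 1e6), with more counts in the doxycycline library of 3 of the 4 animals. The share of counts on 3 features that overlap ribosomal RNA was 1.87, 1.72, 1.67 and 2.15% with doxycycline and 2.37, 2.62, 2.93 and 2.08% without it, so it was lower in animals 1 to 3 and not in animal 4 (exact permutation p = 0.0571). Its part in the results was not tested beyond the fits that carry it as a covariate. In a principal component analysis of 500 genes, component 1 carried 49.6% of the variance, and its scores were tied to animal for 97.2%, to sex for 95.8% and to doxycycline for 1.13%, so animal and sex largely coincided there. Component 2 carried 17% of the variance and was tied to animal for 41.5%, to doxycycline for 26.6% and to sex for 4.14%.

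With the 2 libraries of each animal paired in the fit, 150 of 16986 tested genes were called at an adjusted p under 0.05 (edgeR quasi-likelihood test, 0.883% of genes), 83 higher with doxycycline (0.489%) and 67 lower (0.394%). Differences were small, with a median size of 0.21 on the log2 scale, and 1 gene passed 2-fold: Olfr1512, an olfactory receptor gene at 0.0841 ± 0.077 against 0.374 ± 0.199 CPM. All 150 moved the same way in all 4 animals, as did 21.8% of all genes tested. In 60 of the 150 the 4 treated and 4 untreated values did not overlap, against 3.83% of all genes tested. The count rests on the pairing and on few animals. Without the animal term 2 genes were called (0.0118%), P2ry2 and Agpat4, and 1137 genes had an unadjusted p under 0.05 in place of 2232. Without animal 1 the count was 21, without animal 3 it was 46, without animal 2 it was 233 and without animal 4 it was 250, and with the ribosomal RNA share as a covariate it was 5 (0.0294%), 3 higher (0.0177%) and 2 lower (0.0118%). All 150 kept their sign with that covariate, with a median size of 0.196. The genes were picked in these same 8 libraries, so a kept sign is not a separate test.

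**Figure D1:**
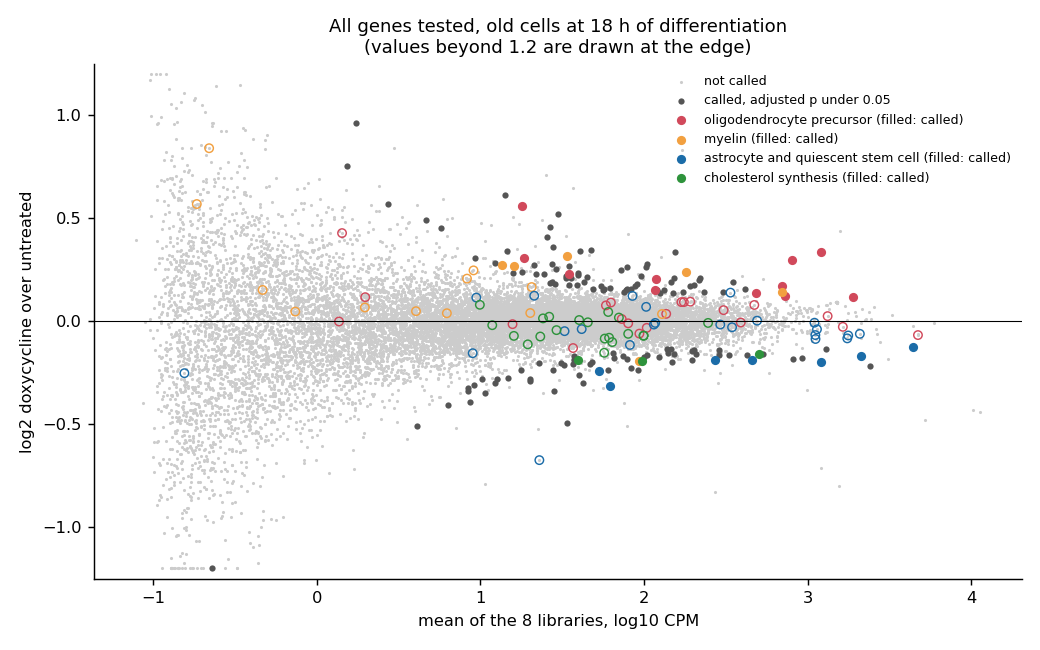
All 16986 genes tested, with the mean of the 8 libraries on the horizontal axis (log10 CPM) and the log2 difference between doxycycline and untreated libraries on the vertical axis; values beyond 1.2 are drawn at the edge. Small light grey dots are genes not called, larger filled symbols are called genes and open symbols are uncalled members of 4 lists. Called oligodendrocyte precursor genes all lie above 0 and called astrocyte genes all lie below it.

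P2ry2 and Agpat4 were the only genes called with and without the animal term. P2ry2 (ENSMUSG00000032860, mm10 chromosome 7, 100996568 to 101012866, minus strand) encodes a G protein-coupled receptor for extracellular ATP and UTP. It was at 36.7, 36.4, 32.5 and 35.6 CPM with doxycycline in animals 1 to 4 and at 26.3, 23.2, 24.6 and 24.2 CPM without it. Every treated library lay above every untreated one. The log2 difference was 0.52 ± 0.04 (SE, adjusted p = 4.82e-05; 0.00299 without the animal term and 0.0125 with the ribosomal RNA share). Agpat4 (ENSMUSG00000023827, chromosome 17, 12118704 to 12219645, plus strand) encodes an enzyme that acylates lysophosphatidic acid to phosphatidic acid. Its values were 31.1, 32.7, 30.6 and 29.0 CPM against 21.8, 21.3, 24.2 and 22.5 CPM. These groups did not overlap either, with a log2 difference of 0.46 ± 0.05 (adjusted p = 3.46e-04; 0.00802 without the animal term and 0.162 with the ribosomal RNA share).

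The 250 bases before the start of both genes are shown because these 2 genes were called with and without the animal term. The sequences are from RefSeq (GRCm38.p6, the build of mm10), 5′ to 3′ on the strand of the gene. For P2ry2 the window is chr7:101012054-101012303 and belongs to 1 of the 2 starts in that table. For Agpat4 it is chr17:12119034-12119283, and both windows lie inside the gene spans given above, which come from GENCODE. Capitals mark CCACCC or its reverse complement GGGTGG, a box that KLF factors can bind.
P2ry2: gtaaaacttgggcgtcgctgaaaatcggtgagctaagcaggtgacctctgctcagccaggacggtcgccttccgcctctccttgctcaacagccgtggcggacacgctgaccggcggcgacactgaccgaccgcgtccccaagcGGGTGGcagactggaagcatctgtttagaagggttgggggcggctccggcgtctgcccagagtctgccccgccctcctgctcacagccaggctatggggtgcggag
Agpat4: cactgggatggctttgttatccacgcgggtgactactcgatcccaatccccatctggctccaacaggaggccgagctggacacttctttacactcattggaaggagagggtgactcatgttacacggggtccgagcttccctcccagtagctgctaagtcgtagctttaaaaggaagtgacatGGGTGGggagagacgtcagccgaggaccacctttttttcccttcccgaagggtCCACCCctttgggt
The P2ry2 window held 1 such match and the Agpat4 window held 2, while the same window before Tnr and before Enpp6 held 0. This motif was in 27.7% of all 27025 promoters, in 31.5% of 54 promoters of genes called higher and in 38.8% of 49 of genes called lower. The E-box CACGTG, which MYC can bind, was in 6.05% of all promoters, in 5.56% of those called higher and in 10.2% of those called lower. The octamer ATGCAAAT, bound by OCT factors, was in 1.61% of all promoters and 1.85% of those called higher, and in 0 of the 49 of those called lower. All motifs were searched on both strands, and a match describes letters only.

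Few relatives of these genes passed the test. Of 29 genes of purine receptors, nucleotidases and nucleoside transporters 22 were tested and 2 rose, with a median log2 difference of 0.00. The second was Slc29a3, a lysosomal nucleoside transporter, at 59.4 ± 1.54 against 53.4 ± 0.963 CPM (log2 0.15 ± 0.03, adjusted p = 0.0398). Slc29a4, a transporter of the plasma membrane, had a log2 difference of 0.12 ± 0.04 (adjusted p = 0.168). P2ry1, an ADP receptor, had one of 0.03 ± 0.04. P2ry12 and P2ry14 were under 1 CPM, and P2ry4, P2ry6, P2ry10 and P2ry13 were too low to test. Among 22 tested acyltransferases and lipins Agpat4 was the single one called. Agpat1 had a log2 difference of 0.07 ± 0.03, Agpat3 of 0.01 ± 0.03 and Agpat5 of 0.04 ± 0.03, all with the SE.

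Of the 33 lists, that of oligodendrocyte precursor genes held the most called genes. The lists differ in size and were chosen with earlier results of these data known. Over all genes tested 0.489% were called higher and 0.394% lower. Of 32 listed genes, all tested, 11 rose and none fell, with a median of 0.09 against -0.001 over all genes; 23 had a positive difference, 17 of them in all 4 animals. In bulk RNA more cells of a type and more RNA per cell cannot be told apart. Tnr (ENSMUSG00000015829, chromosome 1, 159523769 to 159931729), the gene for tenascin-R, an extracellular matrix protein of this lineage, was at 1257, 1159.5, 1465 and 1469 CPM with doxycycline and at 948, 979.7, 1191 and 1119 CPM without it. Each animal was higher with doxycycline, although animal 2 with it lay below animal 3 without it (log2 0.34 ± 0.03, adjusted p = 9.33e-05). Tnr was also called with the ribosomal RNA share in the fit (adjusted p = 0.0125). Gm38039, a feature on the other strand within the same locus, changed by 0.35 ± 0.04, and since the strand setting of the counting is not given in the sources used here its reads cannot be told apart from those of Tnr.

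Markers of the committed step rose in the same animals. Gpr17, a receptor that peaks in committed precursors, was at 819, 754, 1058 and 922 CPM with doxycycline and 626, 615, 883 and 782 CPM without it. Animals 3 and 4 were high and animals 1 and 2 low in both groups, so the groups overlapped while every pair rose (log2 0.30 ± 0.03, adjusted p = 2.44e-04). Lims2, which overlaps Gpr17 on the other strand, changed by 0.26 ± 0.03. Enpp6, a choline phosphodiesterase of newly forming oligodendrocytes, was at 18.2, 19.8, 25.4 and 21.1 CPM against 10.5, 12.2, 19.7 and 15.9 CPM (log2 0.56 ± 0.07, adjusted p = 0.00483). Bcas1, another marker of early myelinating cells, rose by 0.21 ± 0.03 and Neu4, a sialidase, by 0.31 ± 0.05. C1ql1, a secreted C1q-like protein, rose by 0.23 ± 0.04.

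Sox8, a SOX transcription factor of the lineage, was at 744, 731, 752 and 747 CPM with doxycycline and 666, 633, 674 and 665 CPM without it. The groups did not overlap, and the log2 difference was 0.17 ± 0.03 (adjusted p = 0.00617). Olig2, which specifies the lineage, was at 759 ± 15.6 against 697.5 ± 13.3 CPM, again without overlap (log2 0.12 ± 0.03, adjusted p = 0.0354). Olig1 rose by 0.12 ± 0.03, with groups that overlapped. Cacng4, an AMPA receptor subunit, rose by 0.15 ± 0.03, and Sirt2, a tubulin deacetylase of this lineage, by 0.14 ± 0.03. Other precursor genes were not called, among them Pdgfra, the PDGF receptor. Pdgfra was at 102.7 ± 10.5 against 104.9 ± 9.08 CPM, while Cspg4 (NG2) had a log2 difference of 0.09 ± 0.04 (adjusted p = 0.32) and Sox10 one of 0.08 ± 0.04.

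Of 20 myelin genes 18 were tested, of which 5 rose and 1 fell, with a median of 0.16 and a positive difference in 17. Cnp, an enzyme of the myelin membrane, was at 727.5, 731, 713 and 738 CPM with doxycycline and 653, 638, 656 and 691 CPM without it. The groups did not overlap (727.5 ± 10.4 against 659.5 ± 22.6 CPM, log2 0.14 ± 0.03, adjusted p = 0.0235). Myrf, the transcription factor that starts myelin genes, rose by 0.32 ± 0.05, and the lipid enzymes Fa2h and Gal3st1 rose by 0.27 ± 0.06 and 0.27 ± 0.05. Gjc3, a connexin of the lineage, fell by 0.19 ± 0.03. Mbp was at 9.79 ± 1.84 against 8.34 ± 2.34 CPM and was not called (adjusted p = 0.127), and Mog, Mag and Opalin, genes of mature myelin, stayed at or under 0.278 CPM in the mean of either group.

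These counts depended on single animals and on the fit. With 4 animals the precursor list had 11 genes called higher, without animal 1 it had 4, without animal 3 it had 5, without animal 2 it had 13 and without animal 4 it had 9, while its median stayed between 0.07 and 0.10. The myelin count of 5 became 0 without animal 1, 3 without animal 3 and 4 without animal 2 or animal 4. Without the animal term both lists had 0 called genes. With the ribosomal RNA share as a covariate 1 precursor gene and 0 myelin genes were called, at medians of 0.09 and 0.16.

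**Figure D2:**
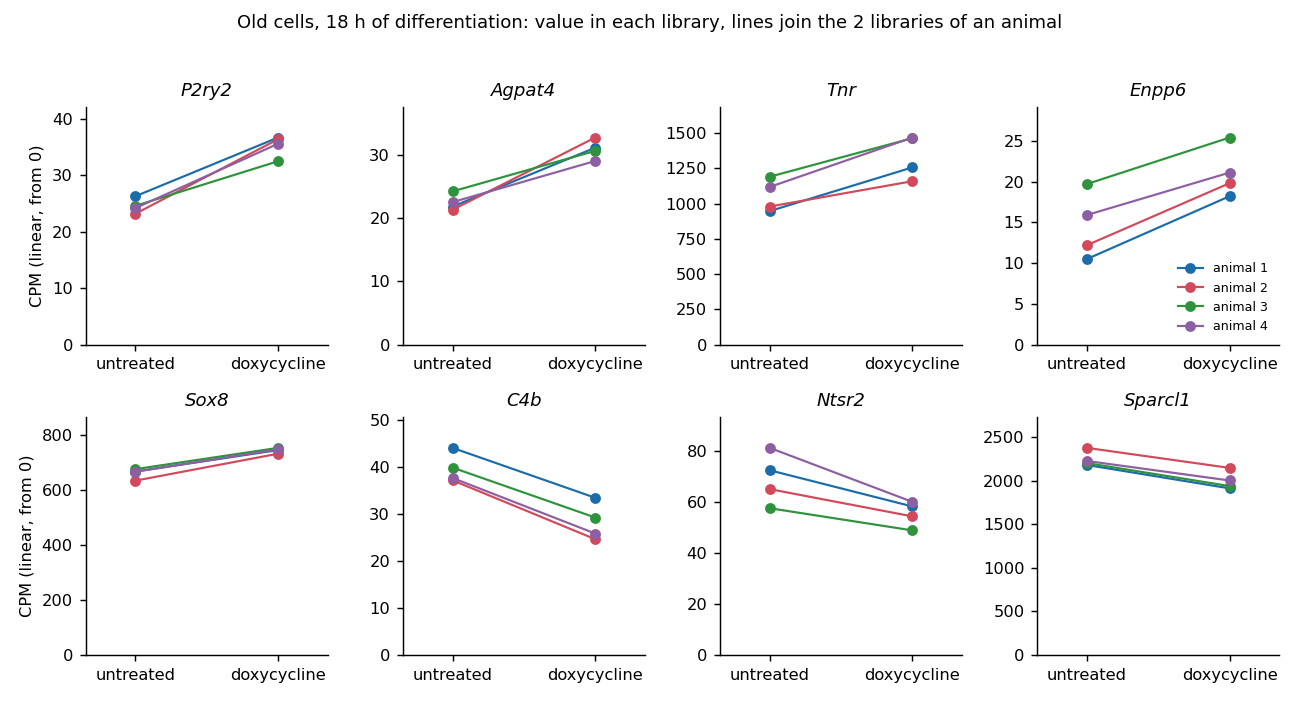
Values of 8 genes in each library (CPM, axes from 0), with lines that join the untreated and the doxycycline library of each of the 4 animals. P2ry2, Agpat4, Tnr, Enpp6 and Sox8 rise in every animal, and C4b, Ntsr2 and Sparcl1 fall in every animal.

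Genes shared by astrocytes and quiescent stem cells moved the other way. Of 30 listed, all tested, 0 rose and 7 fell, with a median of -0.06 and a negative difference in 24, of which 15 were lower in all 4 animals. Ntsr2, a neurotensin receptor of astrocytes, was at 58.3, 54.4, 48.9 and 60.1 CPM with doxycycline and 72.5, 65.1, 57.6 and 81.3 CPM without it. Animal 3 was lowest in both groups, and the untreated library of animal 3 lay below the treated libraries of animals 1 and 4 (log2 -0.31 ± 0.04, adjusted p = 0.00102; 0.0125 with the ribosomal RNA share). Sparcl1, a secreted matrix protein of astrocytes, was at 1915, 2150.3, 1941 and 2006 CPM against 2184, 2380.4, 2205 and 2229.7 CPM, with no overlap (log2 -0.17 ± 0.02, adjusted p = 0.00478). Aqp4, the water channel of astrocyte endfeet, fell by 0.19 ± 0.03, Gja1 (connexin 43) by 0.19 ± 0.03 and Slc1a2, a glutamate transporter, by 0.20 ± 0.03. Gm13872, which overlaps Slc1a2 on the other strand, fell by 0.26 ± 0.05.

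Id4, an inhibitor of bHLH factors that holds stem cells in quiescence, was at 47.6, 48.4, 50.5 and 49.1 CPM with doxycycline and 56.2, 57.9, 58.0 and 58.9 CPM without it. The groups lay well apart (log2 -0.24 ± 0.03, adjusted p = 0.00365; 0.057 without the animal term), and 2 further called features overlap this locus, A330033J07Rik and Gm49291. Id3 and Id1 had log2 differences of 0.12 ± 0.03 and 0.12 ± 0.04 and were not called. Apoe, a lipid carrier made by astrocytes, fell by 0.12 ± 0.02. Gfap, the intermediate filament of astrocytes, was at 17.4 ± 4.05 against 28.4 ± 11.1 CPM, lower in all 4 animals and not called (log2 -0.67 ± 0.13, adjusted p = 0.148). The 7 astrocyte calls became 2 without animal 1, 2 without animal 3, 8 without animal 2 or animal 4, 0 without the animal term and 1 with the ribosomal RNA share.

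C4b, a complement component that rises with age in brain glia, had the smallest unadjusted p of the comparison. Its values were 33.4, 24.6, 29.2 and 25.8 CPM with doxycycline and 44.0, 37.1, 39.8 and 37.6 CPM without it. No treated library reached the lowest untreated one (log2 -0.49 ± 0.04, adjusted p = 4.82e-05; 0.457 without the animal term and 0.0125 with the ribosomal RNA share). In the fit over all 24 old differentiation libraries, which shares 1 estimate of the spread over 6, 18 and 48 h, the log2 difference was -0.49 ± 0.12 and the adjusted p was 0.102. It was the single called member of 19 tested complement and inflammation genes. Serpina3n, another glial acute phase gene, had a log2 difference of 0.16 ± 0.04 (adjusted p = 0.0823), and none of 20 tested interferon response genes was called.

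Other groups held few called genes. Of 20 tested genes of activated stem cells and progenitors 1 rose and 1 fell: Etv5, an ETS factor downstream of FGF signalling, rose by 0.15 ± 0.03 and Cdk6, a kinase of early G1, fell by 0.30 ± 0.05. Of 40 cell cycle genes Ccnd2, a G1 cyclin, rose by 0.19 ± 0.03 and Hmgb2, a chromatin protein of cycling cells, fell by 0.29 ± 0.05, and the median was -0.04. Mki67 was at 9.86 ± 1.53 against 12.4 ± 1.47 CPM and was not called (adjusted p = 0.0803). Of 26 tested neuroblast genes 1 fell, Gad1, the enzyme that makes GABA, at 21.5, 26.8, 26.2 and 25.5 against 30.4, 36.6, 28.3 and 31.4 CPM (log2 -0.34 ± 0.06, adjusted p = 0.0201). Dcx, the marker of migrating neuroblasts, was at 75.9 ± 16.0 against 71.3 ± 17.7 CPM.

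Of 13 tested secretory granule and neuropeptide genes 1 rose: Scg2, a secretory granule protein, was at 6.65 ± 0.848 against 4.85 ± 0.44 CPM (log2 0.46 ± 0.07, adjusted p = 0.00957). The pluripotency network list held 8 tested genes of 23, none called, and 19 of the 23 were under 1 CPM in all 8 libraries. Ribosome biogenesis and MYC targets (26 tested), p53 targets (22), extracellular matrix (30), contractile (20), immediate early (18), Notch (17), mitochondrial translation (30) and glycolysis genes (25) also held 0 called genes. Manf, a secreted ER stress protein, rose by 0.16 ± 0.03 as the 1 called gene of 18 in the unfolded protein response, and Aldh18a1, an enzyme of proline synthesis, by 0.17 ± 0.03 as the 1 of 22 in the integrated stress response. Of 13 mitochondrially encoded messages mt-Atp8 rose by 0.61 ± 0.10 while mt-Nd5 and mt-Nd6, which overlap on opposite strands, fell by 0.22 ± 0.03 and 0.18 ± 0.03. These calls became 0 with the ribosomal RNA share, 3 higher and 0 lower over all old differentiation libraries, and 5 higher and 3 lower with DESeq2. The list's median was 0.23 and became -0.12 with the ribosomal RNA share in the fit; its median within animal 3 was 0.64, against -0.05 to 0.06 in the others.

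**Figure D3:**
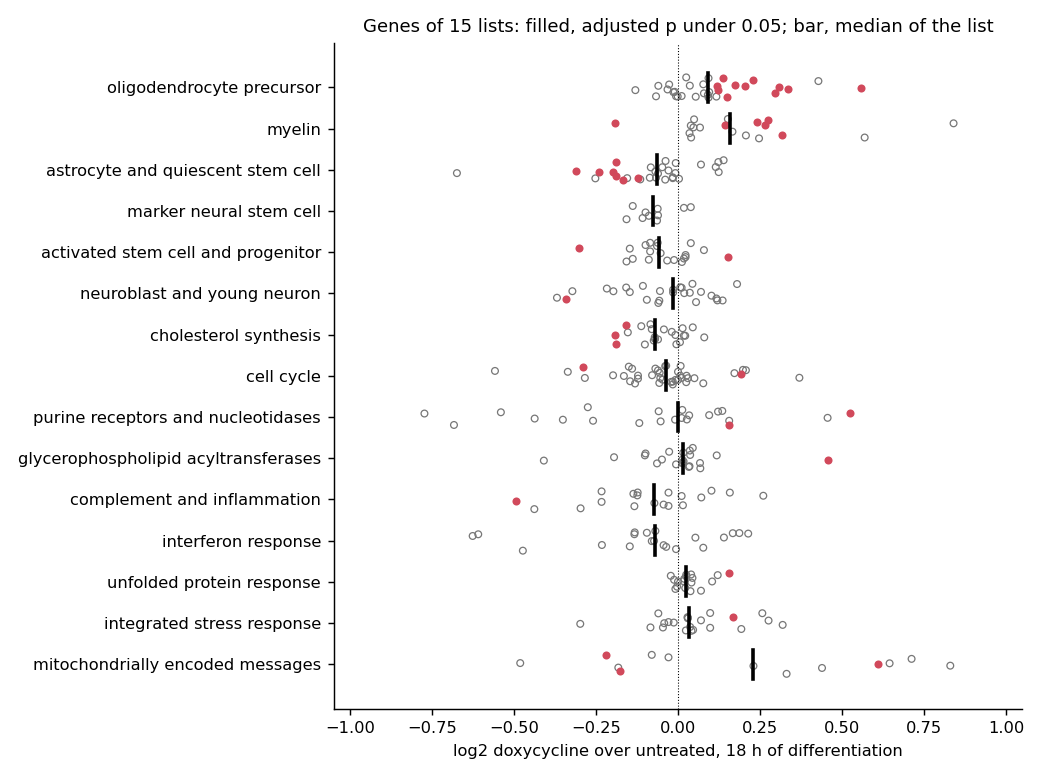
Log2 difference between doxycycline and untreated libraries at 18 h for the tested genes of 15 lists, 1 symbol per gene, filled where called; the vertical bar is the list's median. The oligodendrocyte precursor and myelin lists lie mostly right of 0 with 11 and 5 genes called higher, and the astrocyte list lies mostly left of 0 with 7 called lower.

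Outside the lists, genes called higher included Elfn2, a postsynaptic adhesion protein (29.1 ± 4.54 against 21.9 ± 3.15 CPM, log2 0.41 ± 0.04, adjusted p = 2.96e-04), and Igfbp4, an IGF-binding protein (31.3 ± 1.77 against 24.4 ± 1.55 CPM, log2 0.36 ± 0.04, adjusted p = 0.00102). 1700025G04Rik, a gene of unassigned function, was at 159.5, 183, 164 and 186 CPM with doxycycline and 124, 146, 134 and 144 CPM without it. Its groups did not overlap (log2 0.34 ± 0.03, adjusted p = 4.82e-05), and it was 1 of the 5 genes called with the ribosomal RNA share. Among genes called lower, Adamts5, a protease of the extracellular matrix, was at 18.2 ± 1.14 against 22.1 ± 0.173 CPM with no overlap. Hpgd, which breaks down prostaglandins, was at 8.19 ± 0.58 against 10.2 ± 1.16 CPM.

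Cholesterol synthesis genes held 3 calls at 18 h, all lower with doxycycline, and 14 calls at 48 h, all higher. Of 24 listed genes 23 were tested, 3 fell and 0 rose, with a median of -0.07 and 17 negative. The 3 calls became 0 without animal 1, without animal 3, without the animal term or with the ribosomal RNA share. Hmgcs1, which starts the mevalonate pathway, was at 423, 484, 448 and 539 CPM with doxycycline and 488.5, 541, 503 and 576 CPM without it. Animals kept their order, 1 lowest and 4 highest, in both groups (log2 -0.16 ± 0.03, adjusted p = 0.0149). Fdps, an enzyme of farnesyl pyrophosphate synthesis, fell by 0.19 ± 0.04 and Insig1, which restrains the SREBP pathway, by 0.19 ± 0.03. At 48 h in the same animals all 23 tested members had a positive difference, 14 were called higher (2.13% of all genes were) and the median was 0.16. The test of the difference between 18 and 48 h called 21 of 17521 genes (0.12%), 6 with a larger value at 18 h (0.0342%) and 15 with a lower one (0.0856%), and 9 of these 15 belong to this list. Hmgcs1 differed by -0.40 ± 0.05 between the times (adjusted p = 7.38e-04), Fdps by -0.40 ± 0.06 (adjusted p = 0.00421) and Insig1 by -0.31 ± 0.05 (adjusted p = 0.007). Scd1, a fatty acid desaturase outside the list, differed by -0.37 ± 0.05. This test called 1 gene without animal 1, 0 without animal 3, 73 without animal 2, 11 without animal 4, 0 without the animal term and 78 with the ribosomal RNA share. The shares of ribosomal RNA were 1.86 and 2.5% at 18 h and 1.83 and 2.69% at 48 h, with doxycycline and without.

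All called genes were followed in comparisons that share no library with this one, although the 6 h, 48 h and old stem cell medium pairs came from the same 4 animals. At 6 h of differentiation, where 3.67% of all genes were called, 71 of the 83 genes called higher had a positive difference and 31 were called higher (1.69% of all genes were), with a median of 0.14. Of 66 tested genes called lower, 59 had a negative difference and 16 were called lower (1.98%) and 1 higher. At 48 h the counts were 81 of 83 positive with 59 called, and 55 of 67 negative with 28 called (2.02%) and 3 called higher. The 3 called higher, named after their values were seen, were Hmgcs1, Fdps and Gm48342, a feature overlapping Hmgcs1. P2ry2 had log2 differences of 0.76 at 6 h and 0.81 at 48 h, and Agpat4 of 0.64 and 0.34, all called.

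The precursor list had 5 genes called higher at 6 h and 13 at 48 h with none lower, at medians of 0.02 and 0.11. The myelin list had 3 higher at 6 h and 9 at 48 h with none lower, at medians of 0.11 and 0.16. The astrocyte list had 3 higher and 5 lower at 6 h (median -0.04) and 1 higher and 11 lower at 48 h (median -0.12). No gene of these 3 lists was called in the test of the difference between 18 h and 6 h, which called 10 of 17644 genes (0.0567%, with 0.0283% in each direction), or between 18 h and 48 h. Igfbp4 and Shisal1 were among the 10: Igfbp4 had a log2 difference of -0.02 at 6 h and 0.36 at 18 h (difference 0.38 ± 0.05, adjusted p = 0.00204), and Shisal1, a membrane protein, of -0.16 and 0.34 (difference 0.50 ± 0.08, adjusted p = 0.0198). That test called 1 gene without animal 1, 2 without animal 2, 1 without animal 3 and 52 without animal 4.

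**Figure D4:**
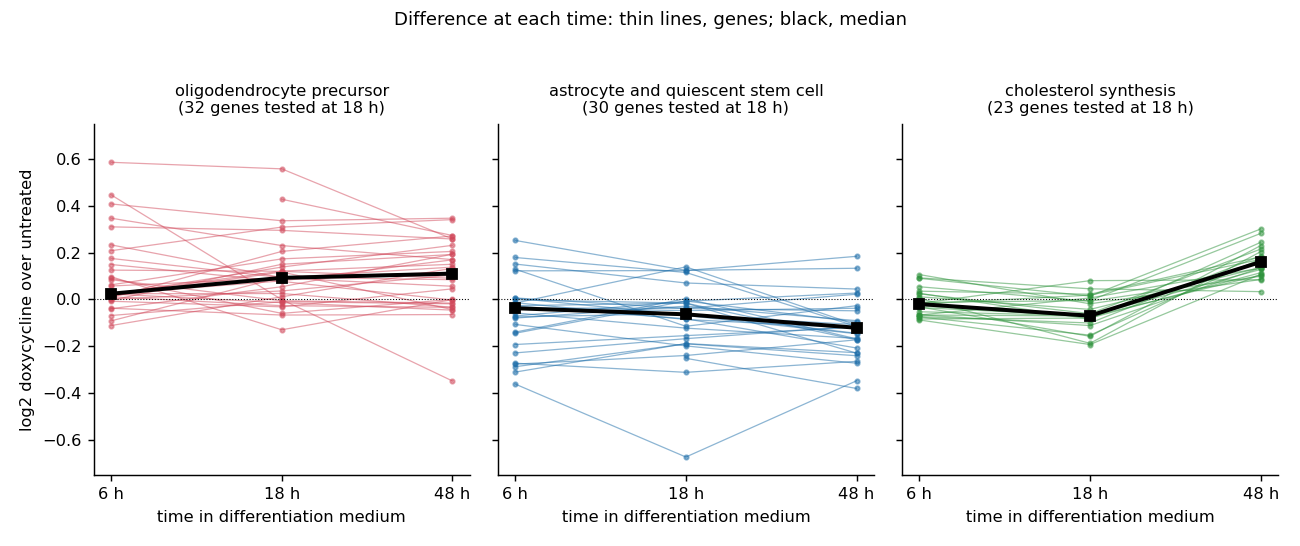
Log2 difference between doxycycline and untreated libraries of old cells at 6, 18 and 48 h in differentiation medium (times spaced evenly) for 3 lists; thin lines are genes and black squares are list medians. The cholesterol synthesis medians run from -0.02 to -0.07 to 0.16, whereas the precursor medians stay above 0 and the astrocyte medians below it.

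In stem cell medium at 18 h, where growth factors were present, the genes called at 18 h of differentiation were split in direction in old cells. Of 82 tested genes called higher in differentiation, 47 were positive, 10 called higher and 12 called lower, with a median of 0.02; 4.18% of all genes were called higher and 7.01% lower there. Of 63 called lower, 37 were negative, with 12 called lower and 4 higher. In young cells of 5 other animals in that medium 63 of 81 were positive, with 20 called higher (6.85% of all genes) and 1 called lower. Of the 63 tested there that were called lower in differentiation, 46 were negative, with 12 called lower (6.74%) and 3 higher. In old cells in that medium the precursor list had 2 genes called higher and 6 lower (median 0.01), and the astrocyte list 1 higher and 12 lower (median -0.12). The test of the difference between media called 995 of 17657 genes (5.64%), 733 with a larger value in differentiation medium (4.15%) and 262 with a lower one (1.48%). Of the 32 precursor genes this test called 10 with a larger value in differentiation medium, Tnr among them, and 0 with a lower one (Tnr: difference 0.33, adjusted p = 7.17e-05). The ribosomal RNA share was 1.74% with and 0.999% without doxycycline in old cells in stem cell medium, opposite to its direction in differentiation medium. With that share in the fit the test of the difference called 15 genes (0.085%), 9 with a larger value in differentiation medium (0.051%) and 6 with a lower one (0.034%), 1 of them in the precursor list, and without the animal term it called 1. Agpat4 had its larger difference in stem cell medium (0.84 in old and 0.94 in young cells), and P2ry2 had 0.47 and 0.59 there.

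The old untreated libraries enter both the doxycycline comparison and the comparison with young untreated cells at 18 h, so values are set side by side without a count of shared genes. Age was called for 880 of 16943 genes between the untreated groups (5.19%), and 1404 of 17047 were called between old cells with doxycycline and young untreated cells (8.24%). Levels scaled over all 65 libraries put Tnr at 729.8 ± 97.0 CPM in young untreated cells (n = 5), 1042 ± 112 in old untreated cells and 1320 ± 142 in old cells with doxycycline (n = 4 each). Old exceeded young by 0.53 on the log2 scale (adjusted p = 0.0198), and old with doxycycline exceeded young by 0.86 (adjusted p = 8.42e-04), so the treated level lay farther from the young one. Gpr17 followed that order at 385 ± 111, 714 ± 127 and 876 ± 123 CPM, where old against young did not pass (adjusted p = 0.0859). P2ry2 was at 22.8 ± 0.889, 24.2 ± 1.4 and 34.8 ± 2.19 CPM, with no difference of age called (adjusted p = 0.283). C4b was at 39.3 ± 4.56, 39.0 ± 3.33 and 27.9 ± 3.95 CPM, with old with doxycycline below young (log2 -0.49, adjusted p = 0.0205). Hmgcs1 was at 411 ± 31.4, 518.5 ± 37.8 and 467 ± 49.2 CPM: old exceeded young by 0.35 (adjusted p = 0.005), and old with doxycycline by 0.19 (adjusted p = 0.109).

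The groups of called features contained loci counted more than once. Of the 150, 65 overlap some other annotated feature, and 21 form 12 overlapping pairs in which both were called, 11 of them on opposite strands.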

How the data were processed

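RNA-seq libraries were made from total RNA with a stranded Illumina mRNA kit and sequenced as paired reads, per the labels' protocols. The authors deposited a table of counts for 31057 features and a table of variance-stabilised values on a log2 scale. Per the submitters' processing notes the genome was mm10 and the tools were STAR 2.7.10b, Trim Galore 0.6.6, Subread, SAMtools and, in version 1.40.1, DESeq2; the strand setting of the counting is not given in the sources used here. In the 8 libraries 9022 deposited count values were 2 and 2382 were 1, as when both mates of a pair are counted.

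Counts were tested with edgeR 4.0.16 in R 4.3.3 (quasi-likelihood test with robust fit, TMM scaling, low counts removed by filterByExpr at 10, Benjamini-Hochberg adjustment over all genes tested, called at an adjusted p under 0.05), with the animal as a block. Tests of a difference between times or media used 1 block per animal and condition. CPM values are scaled by TMM. Single measures per library were compared by exact two-sided permutation tests. Feature IDs were matched to symbols and coordinates of GENCODE M21 for 31011 features, and 46 were left unnamed.

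Replicate numbers in the titles stand for animals. The deviations of same-animal libraries from their group means correlated at 0.48, 0.206, 0.403 and 0.376 over genes, against a median of -0.199 and at most 0.286 for libraries of different animals. Subtracting the group means by itself pulls the values of different animals below 0 when those of the same animal lie above it. The doxycycline library of animal 2 correlated more with the untreated library of animal 1 (0.286) than with that of animal 2 (0.206). With the animal as a block, the p-values for doxycycline draw on how the difference within an animal varied over the 4 animals. Spread between animals in the level of a gene is removed by that block. The tests between times or media treat blocks of the same animal as independent. The p-values of old against young draw on the spread between animals of the same age. In every edgeR fit the spread of a gene is taken partly from that of all genes tested. The p-values therefore do not rest on the gene's own libraries alone.

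Named genes were drawn from those called without the block. They also came from the 15 per direction with the largest change among called genes at 5 CPM or more. Further sources were the 4 factors, the P2ry, Slc29a and Agpat genes, and up to 5 per direction in each test of a difference. Each of 33 lists gave up to 6 called and its 3 highest members. Not every gene of these sets is reported elsewhere in the text, for example Cftr (log2 -0.41) and Cnih2 (log2 0.34). Other uncalled markers, and Olfr1512, were named after their values were seen. The members and lists were chosen with earlier results of these data known.

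The fit was tested on simulated data for this comparison (16986 genes), with 67, 67 and 66 genes changed by 0.3, 0.5 and 1 on the log2 scale. It recovered 70.1, 80.6 and 90.9% of these. A further 15 calls were false, to be read against the number of genes changed and not against all genes. The simulated counts were drawn independently for each gene from the fitted paired model. They held no quality difference shared over the genes of a library, such as the ribosomal RNA share, so these figures do not cover one. Alternatives were no block, RLE scaling, DESeq2 1.42.0, no filter, a mean of at least 1 CPM, the ribosomal RNA share as covariate, all 24 old differentiation libraries, counts divided by 2, limma 3.58.1 on the deposited log2 values, and each animal left out.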

Additional observations from a re-analysis of the deposited data

Results flagged for a closer look

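In 44 groups of 4 values, each tested for 1 value far from the others, 4 stood out, where chance gives about 1 in 20. Klf4 was at 3.21 CPM in the doxycycline library of animal 2, above the other three. The log2 difference of Rnase1 was -0.07 in animal 2, that of Kdr -0.49 in animal 1 and that of Cdk6 -0.49 in animal 2, each apart from the other animals.

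Tests of a difference between conditions picked the genes that follow, given as the log2 difference with doxycycline at 18 h of differentiation minus that in the other condition. Against 6 h the larger values at 18 h were those of Shisal1 (0.50), Igfbp4 (0.38), Arrdc4 (0.28), Olfm2 (0.26) and Slc6a9 (0.24), and the lower ones those of Itga7 (-0.32), Sel1l3 (-0.31), Hist1h1c (-0.28), Gas7 (-0.28) and Axl (-0.28). Axl, a receptor tyrosine kinase, had -0.10 at 18 h and 0.18 at 6 h. Against 48 h the larger values were those of Gm48488 (0.53), 2900026A02Rik (0.38), Thrsp (0.35), Gas1 (0.35) and Acsf2 (0.33), and the lower ones those of Gm48342 (-0.44), Fdps (-0.40), Gm43738 (-0.40), Hmgcs1 (-0.40) and Scd1 (-0.37). Thrsp, which promotes fatty acid synthesis, had -0.14 at 18 h and -0.50 at 48 h.

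Against stem cell medium the larger values were those of Cyp26b1 (1.26), Gm2174 (0.92), mt-Co3 (0.73), 1700047I17Rik2 (0.72) and Scg2 (0.71), and the lower ones those of Sema4a (-1.07), A330033J07Rik (-0.79), Prune2 (-0.78), Sorl1 (-0.77) and Rbm3os (-0.61). Cyp26b1, which degrades retinoic acid, had -0.09 in differentiation medium and -1.36 in stem cell medium. Of these 10 genes Sorl1, a sorting receptor, was also called with the ribosomal RNA share in the fit (adjusted p = 0.00125 by edgeR), while the others had adjusted p values of 0.132 to 0.773 there.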

How the results depend on the processing

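The 150 calls became 2 without the replicate block, 319 with no filter on low counts, 5 with the ribosomal RNA share, 239 over all old differentiation libraries and 44 with DESeq2 and no block, an alternative chosen after seeing the data. Leaving out 1 animal gave 21 to 250 calls. Other settings gave 150 to 211: DESeq2 211, limma on the deposited log2 values 179, RLE 160. Removing the ribosomal RNA features, also chosen after seeing the data, gave 162. Of 57 named genes 51 lost the call without the block, 48 with the ribosomal RNA share, 38 without animal 1 and 32 without animal 3. None reversed under any setting, but libraries that picked these genes enter each of these fits.

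The test against 6 h called 10 genes, 0 without the block, 43 with DESeq2, 46 with no filter and 1 to 52 without 1 animal. The test against 48 h called 21 genes, 0 without the block, 49 with DESeq2, 32 with no filter, 78 with the ribosomal RNA share and 0 to 73 without 1 animal. The test between media called 995 genes, 1 without the block, 15 with the ribosomal RNA share and 259 to 1051 without 1 animal. Old against young called 880 genes, 1593 with DESeq2 and 290 to 1383 without 1 animal. Old with doxycycline against young called 1404 genes and 671 to 1371 without 1 animal. The cause of these shifts was not tested. In the fit of the 8 libraries the covariate leaves 2 residual degrees of freedom in place of 3, and each omission there leaves 3 animals.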
